A study of Mus musculus with 28 samples.

Results

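The 45 genes described here encode the circulating factors of blood coagulation, fibrinolysis and complement, together with some of their cell-surface receptors and regulators. They were taken by gene symbol from the probe annotation of the arrays, and all 45 were found, with 69 probes among the 41174 probes and 28482 gene names of the array. The measurements came from 28 two-colour expression arrays of C57BL/6 mouse RNA, in which each sample was labelled with Cy3 and hybridised against a commercial mouse reference RNA labelled with Cy5. The 13 groups were liver organoids in differentiation medium (DM, 1 array), liver organoids in expansion medium (EM, 2 arrays), Lgr5-sorted cells taken 6 days into CCl4 treatment (2 arrays), ductal cells sorted for the surface antigen Mic1-1c3 (2), the hepatocyte fraction of dissociated liver (2), whole liver (2), livers after 3 days (2) and 13 days (2) of CCl4, adult liver of wildtype mice (2), and, from wildtype mice, pancreas (2), muscle (3), white fat (3) and brown fat (3). Organoids are cultures of epithelial cells in a matrix, in this study grown from single sorted Lgr5+ liver cells, and CCl4 is a solvent toxic to the hepatocytes near central veins. Lgr5 marks cells that respond to Wnt signals, and in this study the sort used it as a mark of liver progenitors. The labels called the arrays biological replicates but named no animal or culture, the DM organoids had no replicate, and p-values below measure only the spread between these arrays.

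Coagulation is a chain of serine proteases, made mostly by hepatocytes as inactive precursors, that ends with thrombin cutting fibrinogen into fibrin. Tissue factor, carried by cells outside the bloodstream, starts the chain; thrombomodulin and protein C restrain it, and plasmin, released from plasminogen by tissue-type and urokinase-type activators, dissolves the clot. Complement is a second protease chain in plasma, in which the lectin pathway and the alternative pathway build enzymes that cut C3, and the terminal proteins then assemble a pore. Most of its soluble components also come from hepatocytes, whereas properdin and factor XIII A chain are made by myeloid cells, and the membrane regulators sit on most cells.

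Values are log2 ratios of Cy3 to Cy5, so that 0 means a signal equal to the reference RNA, and a change is a difference between group means from a limma fit over all 28 arrays. A gene counted as changed at a Benjamini-Hochberg adjusted p below 0.05, over all genes tested, and a change of at least 1 on the log2 scale. Of the 45 genes, 44 were tested, since C5ar1, the receptor for complement fragment C5a, was above background in Cy3 on 1 array only. In bulk RNA of this kind, fewer cells of a type and less RNA per cell cannot be told apart.

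The share of probes above background in Cy3 ran between 17.8% and 69.1% over the arrays, and the Lgr5-sorted arrays were among the lowest, with 21.5% and 18.5%. All 9 biliary markers were above background on both ductal arrays, which also carried all 8 endothelial and all 9 stellate cell or fibroblast markers. In the Lgr5-sorted cells only 1 of 9 biliary markers was above background on both arrays and 6 were on neither, among them Krt19, Epcam and Sox9, and Lgr5 itself was above background on neither. Macrophage markers were high in these cells, with a summed Cy3 level of 20.01 to 21.58 on the log2 scale, against 15.17 to 15.73 in the ductal cells. Lgr5 was above background on both EM arrays, with log2 ratios of 3.79 and 4.52, and not on the DM array. No endothelial marker of 8 was above background on every array of either organoid medium.

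The reference channel limits what the ratios can show for these genes. Cy5, which held the same reference RNA on every array, was more than 2 log2 units higher on the liver and hepatocyte arrays than on the other arrays for 15 of the 45 genes. For Fgb, the fibrinogen beta chain, the scaled Cy5 level averaged 3.43 on liver and hepatocyte arrays and -2.98 on the others. Over all genes, the median Cy5 difference between EM organoids and adult liver was 0.03, and 226 genes (1.06%) had a Cy5 level lower by more than 2 log2 units in EM organoids. The cause was not tested. A high reference signal on liver arrays makes the ratio smaller there, so changes were also computed from Cy3 alone, scaled to the 75th percentile of each array and given below relative to the median of all genes. The plot of both measures shows 14 of the 44 genes more than 2 log2 units further down by Cy3 alone in EM organoids against adult liver.

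**Figure D1:**
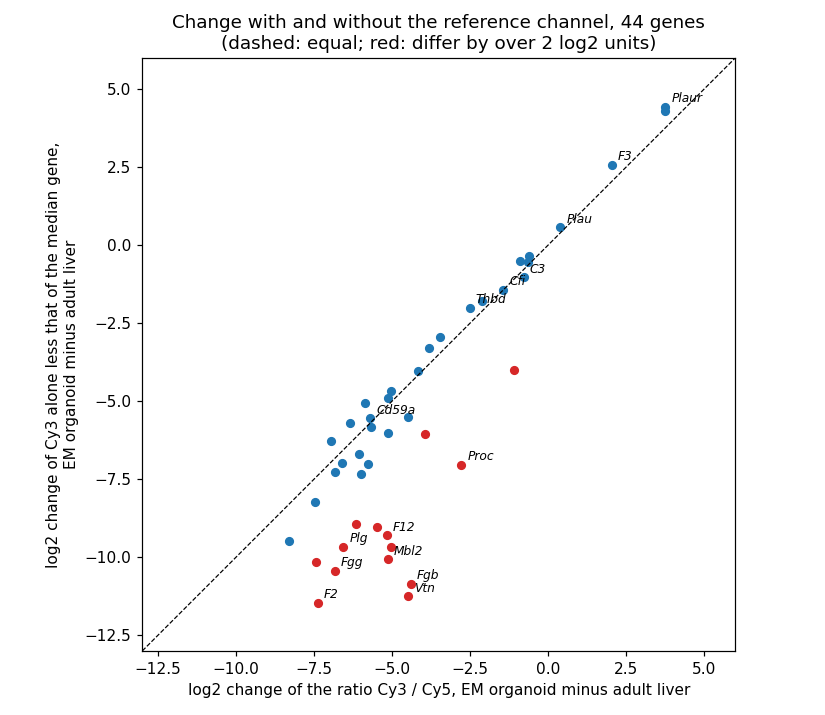
Change of each gene in log2 Cy3/Cy5 (x axis) against its change in Cy3 alone relative to the median gene (y axis, log2), with the diagonal marking equal values. In EM organoids against adult liver, 14 genes lie more than 2 log2 units below the diagonal, among them Fgb (-4.40 by ratio, -10.85 by Cy3) and Vtn (-4.50 by ratio, -11.25 by Cy3).

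Against the extrahepatic tissues, adult liver carried most genes of the plasma proteins at far higher levels. Of the 44 genes, 33 were higher and 4 lower than in muscle, 32 higher and 4 lower than in white fat, 34 higher and 4 lower than in brown fat, and 33 higher and 6 lower than in pancreas. Among all genes, 15.7% were higher and 19.7% lower against muscle, 13.3% and 14.3% against white fat, 13.2% and 15.8% against brown fat, and 12.6% and 16.2% against pancreas. The median change of the 44 genes lay between 4.56 (pancreas) and 5.03 (muscle), against medians of all genes between -0.07 and 0. The 33 genes whose main textbook source is the hepatocyte were above background on every array of every group of liver tissue and hepatocytes. Of these 33, no array of the group was above background for 19 in pancreas, 15 in muscle, 9 in white fat and 8 in brown fat. The pancreas arrays had 17.8% and 44.1% of probes above background. This share was 40.3% to 59.9% on the muscle arrays, 45.9% to 52.9% on white fat and 65.3% to 69.1% on brown fat.

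All 6 genes of terminal complement and all 4 of the contact system, which starts clotting on negatively charged surfaces, were higher in adult liver than in each of the 4 tissues, as were all 3 fibrinogen chains. Of the 7 vitamin K dependent genes, 6 were higher than in muscle and white fat and 7 than in brown fat and pancreas. Cfi, the protease that inactivates C3b, had log2 ratios of 9.44 and 10.18 in adult liver, against 0.07 and 0.48 in pancreas, where neither array was above background. It was at least 222-fold higher in adult liver than in pancreas and at least 565-fold higher than in muscle. Both adult liver arrays lay far above all 11 extrahepatic arrays, the highest of which was a brown fat array at 1.42. Proz, protein Z, a vitamin K dependent cofactor for the inhibition of factor Xa, had 8.25 and 8.22 in adult liver, against 0.18 and -0.13 in pancreas and -0.08, -0.03 and -0.56 in muscle. It was at least 210-fold higher in adult liver than in pancreas and at least 352-fold higher than in muscle. Hc, which encodes complement C5, had 7.30 and 7.07 in adult liver, against 0.55, -0.16 and -0.44 in muscle, at least 147-fold higher in liver.

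Fibrinogen ratios in muscle and fat varied between arrays. Fgb had log2 ratios of 6.06 and 5.46 in adult liver, against 3.60, 3.47 and 1.35 in muscle and 3.27, 0.19 and 3.34 in white fat. Fgg, the fibrinogen gamma chain, showed the same arrays apart, with 4.28, 3.83 and 1.93 in muscle and 3.50, 0.25 and 3.75 in white fat. Alb, which encodes albumin, the main hepatocyte plasma protein, had 3.76, 3.83 and 2.95 in muscle and 3.61, 0.55 and 3.48 in white fat, so the white fat array with little Fgb and Fgg also had little Alb. What these arrays share beyond that was not tested. Fgb was higher in adult liver than in muscle by 2.96 ± 0.99 (log2, SE, limma adjusted p = 0.0152), and by 9.55 in Cy3 alone relative to the median gene. The call was lost with the deposited ratio (2.17, adjusted p = 0.0946), without the third muscle array (2.23, adjusted p = 0.0778) and without the first adult liver array (2.66, adjusted p = 0.0971).

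The 250 bases before the transcription start are shown for the fibrinogen chains Fga and Fgb and for C8a and C8b, chains of the pore protein C8, since these genes were high in liver tissue and hepatocytes and hold GTTAAT, a half-site of the liver transcription factor HNF1, printed in capitals on either strand. The sequences are RefSeq promoters of build GRCm38.p6, 5′ to 3′ along the gene.
Fga (chr3:83025903-83026152, plus strand): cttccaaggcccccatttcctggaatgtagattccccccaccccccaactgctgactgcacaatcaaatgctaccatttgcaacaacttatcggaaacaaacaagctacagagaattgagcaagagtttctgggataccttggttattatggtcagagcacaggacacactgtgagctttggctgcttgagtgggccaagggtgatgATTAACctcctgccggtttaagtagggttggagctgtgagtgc
Fgb (chr3:83049864-83050113, minus strand): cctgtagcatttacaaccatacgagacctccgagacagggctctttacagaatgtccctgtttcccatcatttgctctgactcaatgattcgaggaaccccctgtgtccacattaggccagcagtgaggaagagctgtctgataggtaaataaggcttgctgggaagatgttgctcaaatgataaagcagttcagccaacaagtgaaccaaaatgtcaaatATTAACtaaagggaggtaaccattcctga
C8a (chr4:104876399-104876648, minus strand): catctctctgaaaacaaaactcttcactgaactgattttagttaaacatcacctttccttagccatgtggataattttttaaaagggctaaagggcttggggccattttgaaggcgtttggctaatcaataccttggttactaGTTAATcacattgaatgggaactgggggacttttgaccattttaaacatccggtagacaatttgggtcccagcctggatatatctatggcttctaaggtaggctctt
C8b (chr4:104766067-104766316, plus strand): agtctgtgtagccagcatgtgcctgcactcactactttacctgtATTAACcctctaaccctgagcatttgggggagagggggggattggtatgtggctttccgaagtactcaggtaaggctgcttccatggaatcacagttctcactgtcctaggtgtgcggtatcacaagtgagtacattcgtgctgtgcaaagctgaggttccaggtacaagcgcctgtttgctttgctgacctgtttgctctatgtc

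Promoters were listed for 35 of the 45 genes, and GTTAAT was in 9 of them (25.7%), 8 of the 9 among the 26 promoters of the hepatocyte-source genes. It was in 6.43% of all 32851 listed promoters, searched on both strands over the same 250 bases. The match lay 43 bases before the start in Fga, 29 in Fgb, 107 in C8a and 206 in C8b. TTNNGCAA, a loose form of the C/EBP site, was in 8 of 35 (22.9%), against 9.56% of all promoters. CAAAGT, a half-site of HNF4, was in 6 of 35 (17.1%), against 12.6%, TGTTTAC, a FOXA motif, in 2 (5.71%), against 3.17%, and TATAAA in 4 (11.4%), against 12.4%. Each motif was counted on its own, on both strands, and a match is a description of the sequence and not a measured site.

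The 4 genes that were lower in adult liver than in muscle were F13a1, Plat, Thbd and Plaur, and the same 4 were lower than in white fat. The Plaur call against muscle was lost with the deposited ratio (limma adjusted p = 0.0654). It also fell short of the fold minimum by Cy3 alone (-0.72), with quantile normalization (-0.69), with the mean of probes (-0.84) and without the first adult liver array (-0.85). Against white fat the Plaur change was -0.98 by Cy3 alone. F13a1, the factor XIII A chain, which cross-links fibrin, had log2 ratios of -1.08 and -0.87 in adult liver, against 4.65, 4.29 and 4.25 in muscle, 4.77, 3.92 and 5.12 in white fat, 4.18, 4.21 and 3.16 in brown fat, and 1.79 and 2.34 in pancreas. The 2 liver arrays lay below all 11 arrays of the other tissues. The change was -5.37 ± 0.33 against muscle (SE, adjusted p = 4.53e-11) and -3.04 ± 0.36 against pancreas (adjusted p = 9.15e-07). Its partner F13b, the carrier chain of the factor in plasma, ran the other way, with 6.81 and 7.48 in adult liver, against 0.61, 0.69 and -0.01 in muscle. It was above background on no muscle array and at least 67.4-fold higher in liver. Against muscle, F3, Plau, Pros1, Vtn, Cd55, Cfp and C3ar1 were not called by ratio. For Vtn the reference channel matters here, since its level in Cy3 alone was 8.68 and 8.52 in adult liver, against 0.32, 0 and 0.34 in muscle.

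Plat, tissue-type plasminogen activator, had -3.19 and -2.70 in adult liver, against 0.38, 0.39 and 0.43 in white fat (change -3.34 ± 0.21, SE, adjusted p = 1.19e-10). Thbd, thrombomodulin, the endothelial receptor that turns thrombin towards protein C, had -2.17 and -1.59 in adult liver, against 1.31, 1.04 and 1.67 in white fat. Both liver arrays were below every array of muscle, fat and pancreas for both genes. F3, tissue factor, was lower in adult liver than in brown fat, at -1.80 and -1.64 against -0.25, -0.36 and 0.09. It was not called against the other tissues. Muscle and fat arrays carried markers of each other. Adipocyte markers had a summed Cy3 level of 13.97 to 16.09 in muscle, against 18.62 to 18.91 in white fat. Muscle markers had 12.01 to 17.92 in white fat and 13.97 to 16.59 in brown fat, against 18.97 to 19.24 in muscle. Their part in the F13a1, Plat and Thbd values was not tested.

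Vtn, vitronectin, an adhesive protein of plasma and matrix, turned direction between the measures in adult liver against pancreas. Its log2 ratio was 4.60 and 4.23 in adult liver and 6.78 and 6.73 in pancreas, a change of -2.34 ± 0.70 (SE, adjusted p = 0.0101). By Cy3 alone it was higher in adult liver, by 4.21, or by 4.96 relative to the median gene. Its Cy5 level was also among those that were high on liver arrays, 3.01 against -2.56 on the others. The other genes called lower against pancreas were F13a1, Thbd, Plat, Plaur and Plau, of which Plaur had a change of -1.52 by ratio and 0.11 by Cy3 alone relative to the median gene. Plau was above background on no array of adult liver or pancreas. Its call was lost with the deposited ratio (limma adjusted p = 0.0625), with quantile normalization (0.239) and when any 1 array of either group was left out.

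**Figure D2:**
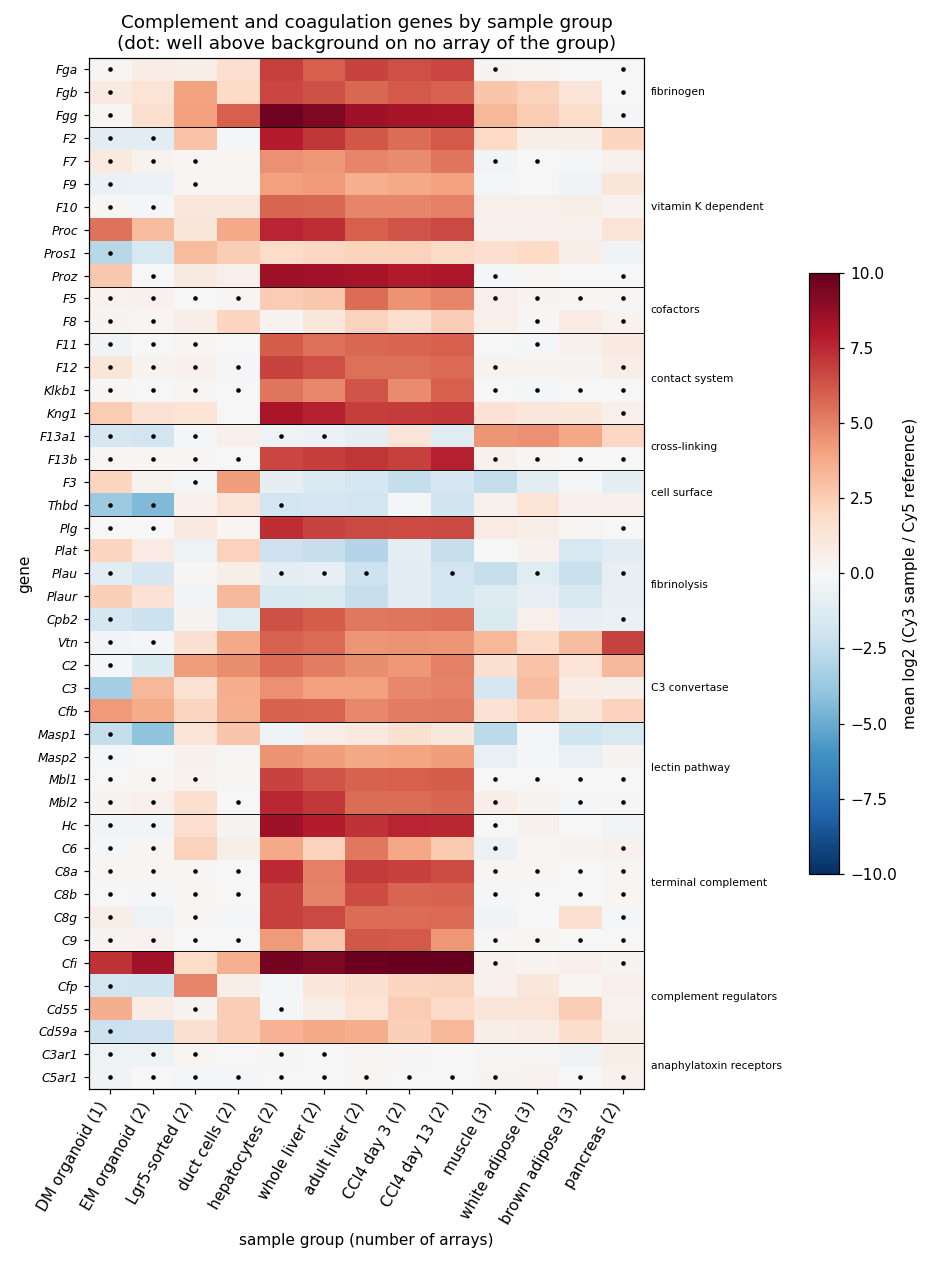
Mean log2 Cy3/Cy5 of each gene (rows, ordered by role) in each of the 13 groups (columns), on a colour scale from low to high. Liver tissue and hepatocyte columns are high across fibrinogen, the vitamin K dependent factors, the contact system and terminal complement, whereas F13a1 is high in muscle and both fats.

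The ductal cells were compared with the hepatocyte fraction to see which of these genes the biliary compartment carries. Of the 44 genes, 8 were higher and 29 lower in ductal cells, with a median change of -4.10, against 11.8% higher, 11.2% lower and a median of 0 among all genes. The 29 genes that fell all belong to the 33 hepatocyte-source genes, and among the 7 genes of endothelial, epithelial or stromal source 6 rose. For all 37 calls the 2 groups' arrays were fully apart. This fixes the sign within each of the 2 slides that held both groups, so the slides are no separate check. The share of all called genes with arrays apart is not given, here or below. Ddx3y, a gene of the Y chromosome, was above background on both hepatocyte arrays and on neither ductal array. The part of the animals' sex in this comparison was not tested.

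The 8 genes that rose were F3, Plaur, Plat, Thbd, Cd55, F8, Plau and Masp1. F3 had log2 ratios of 3.89 and 4.47 in ductal cells, against -1.09 and -0.68 in hepatocytes, a change of 5.06 ± 0.25 (SE, adjusted p = 7.17e-12). Plaur, the receptor for urokinase, had 3.04 and 3.45 in ductal cells, against -1.65 and -1.42 in hepatocytes (4.78 ± 0.26, adjusted p = 2.59e-11). Plat had 1.97 and 2.58 in ductal cells, against -2.22 and -1.93 in hepatocytes (4.35 ± 0.23, adjusted p = 2.26e-11). The ductal arrays were the highest of all 28 for F3 and Plaur. The F3 probe lies at chr3:121437335-121437394 on the plus strand and the Plaur probe at chr7:25260569-25260628 on the plus strand of mm9, per the scanner files.

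Thbd had 1.05 and 1.59 in ductal cells, against -2.05 and -1.81 in hepatocytes, where neither array was above background, and was at least 8.62-fold higher in ductal cells. Cd55, which dissolves C3 convertases on the cell surface, had 1.61 and 3.37 in ductal cells, against -0.08 and -0.12 in hepatocytes, at least 3.71-fold higher. F8, the factor VIII cofactor made by endothelial cells, had 1.96 and 2.36 in ductal cells, against 0.49 and 0.12 in hepatocytes (1.85 ± 0.35, adjusted p = 0.000253). The ductal arrays also carried all 8 endothelial markers, with a summed Cy3 level of 15.21 to 15.88, against 10.70 to 11.48 in hepatocytes, and their part in Thbd and F8 was not tested. Plau, urokinase, was called higher by ratio and was at least 2.41-fold higher in ductal cells, but by Cy3 alone its adjusted p was 0.0911. Cd59a, which blocks the terminal pore, had 2.48 and 2.42 in ductal cells and 3.36 and 3.57 in hepatocytes and was not called. Immediate early and stress genes that rise during cell isolation had a summed Cy3 level of 18.26 to 18.79 in ductal cells, against 11.09 to 11.69 in hepatocytes, and their part in F3 and Plaur was not tested.

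The promoters of F3 and Plaur are shown because both genes rose in ductal cells and both hold TGACTCA, the AP-1 motif, in capitals on either strand (RefSeq, GRCm38.p6, 250 bases before the start).
F3 (chr3:121723287-121723536, plus strand): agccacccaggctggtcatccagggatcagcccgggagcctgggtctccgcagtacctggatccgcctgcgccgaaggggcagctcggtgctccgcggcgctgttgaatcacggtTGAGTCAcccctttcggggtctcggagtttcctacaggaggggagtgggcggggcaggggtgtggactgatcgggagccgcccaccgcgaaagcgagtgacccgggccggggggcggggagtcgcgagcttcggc
Plaur (chr7:24462233-24462482, plus strand): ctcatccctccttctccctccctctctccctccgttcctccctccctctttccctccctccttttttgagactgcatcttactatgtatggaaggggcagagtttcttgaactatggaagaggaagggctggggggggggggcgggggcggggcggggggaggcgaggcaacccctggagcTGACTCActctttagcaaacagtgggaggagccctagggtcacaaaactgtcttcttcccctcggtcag
The motif lay 135 bases before the start in F3 and 69 in Plaur. It was in 4 of the 35 promoters (11.4%; F3, Fgb, Plaur and C3ar1), against 4.46% of all listed promoters, and Fgb fell in the same comparison.

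Among the genes that fell, Mbl2, a mannose-binding lectin of the lectin pathway, had log2 ratios of -0.10 and -0.01 in ductal cells, against 6.48 and 8.57 in hepatocytes. It was above background on neither ductal array and at least 191-fold lower than in hepatocytes. F12, factor XII of the contact system, was at least 112-fold lower, C8a at least 83.6-fold, C8b at least 51.8-fold and F13b at least 34.9-fold. Hc had 0.07 and 0.46 in ductal cells, against 7.35 and 9.60 in hepatocytes, a change of -8.21 ± 0.49 (SE, adjusted p = 1.62e-10). Kng1, kininogen, had 0.13 and -0.14 in ductal cells, against 7.12 and 9.18 in hepatocytes (-8.15 ± 0.69, adjusted p = 1.12e-08). Proz had 0.53 and 0.42 in ductal cells, against 7.48 and 9.5 in hepatocytes. For all of these the lower hepatocyte array was still more than 5 log2 units above the higher ductal array. The proteases F7, F9, F10 and F11 changed by -4.38, -3.95, -4.76 and -6.11, Plg by -7.16 and Cpb2, a carboxypeptidase that slows fibrinolysis, by -7.58. Of the lectin and terminal pathways, Mbl1 changed by -6.59, Masp2 by -4.38 and C8g by -7.01, and the cofactor F5 was at least 4.02-fold lower.

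Some plasma protein genes were well above background on both ductal arrays. Cfb, factor B of the alternative pathway, had 2.98 and 4.16 in ductal cells, against 4.86 and 6.99 in hepatocytes (-2.36 ± 0.71, SE, adjusted p = 0.014). Proc, protein C, had 3.55 and 4.10 in ductal cells, against 6.21 and 8.96 in hepatocytes (-3.76 ± 0.66, adjusted p = 0.00013). C3 had 3.15 and 4.08 in ductal cells and 3.98 and 5.18 in hepatocytes, which overlapped and was not called by ratio. In Cy3 alone the C3 arrays did not overlap, with 7.86 and 8.04 in ductal cells and 10.43 and 10 in hepatocytes. C2 had ratios of 3.87 and 5.39 in ductal cells against 5.22 and 5.97. Fgg had 4.98 and 6.90 in ductal cells and 8.31 and 11.21 in hepatocytes (-3.82 ± 1.14, adjusted p = 0.0133). The calls of Fgg and Cfb were both lost with the deposited ratio (adjusted p = 0.202 for Fgg and 0.181 for Cfb) and with quantile normalization (0.156 and 0.225). They were also lost without the first ductal array (0.158 and 0.16) and without the second hepatocyte array (0.233 and 0.292). In all, 18 of the 33 hepatocyte-source genes were above background on both ductal arrays and 8 were on neither. Those arrays had 57.9% and 39.6% of all probes above background. Hepatocyte markers were on them too, with 5 of 9 above background on both arrays and 1 on neither. Their summed Cy3 level was 14.08 to 15.29, against 20.05 to 20.86 in hepatocytes, and their part in the ductal values was not tested. Besides C3, C2 and Cd59a, the genes not called were Pros1, Cfp, F13a1 and C3ar1.

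Masp1, a protease of the lectin pathway, depended on the probe. The probe used for it, the brighter one, rose in ductal cells, with 2.35 and 3.28 against -0.50 and -0.30 in hepatocytes (3.22 ± 0.58, SE, adjusted p = 0.000163). Masp1 has 4 probes. Another of them averaged 0.04 in ductal cells and 6.07 in hepatocytes, and with the mean of the probes the change was -1.18. Which transcripts the probes read was not tested.

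**Figure D3:**
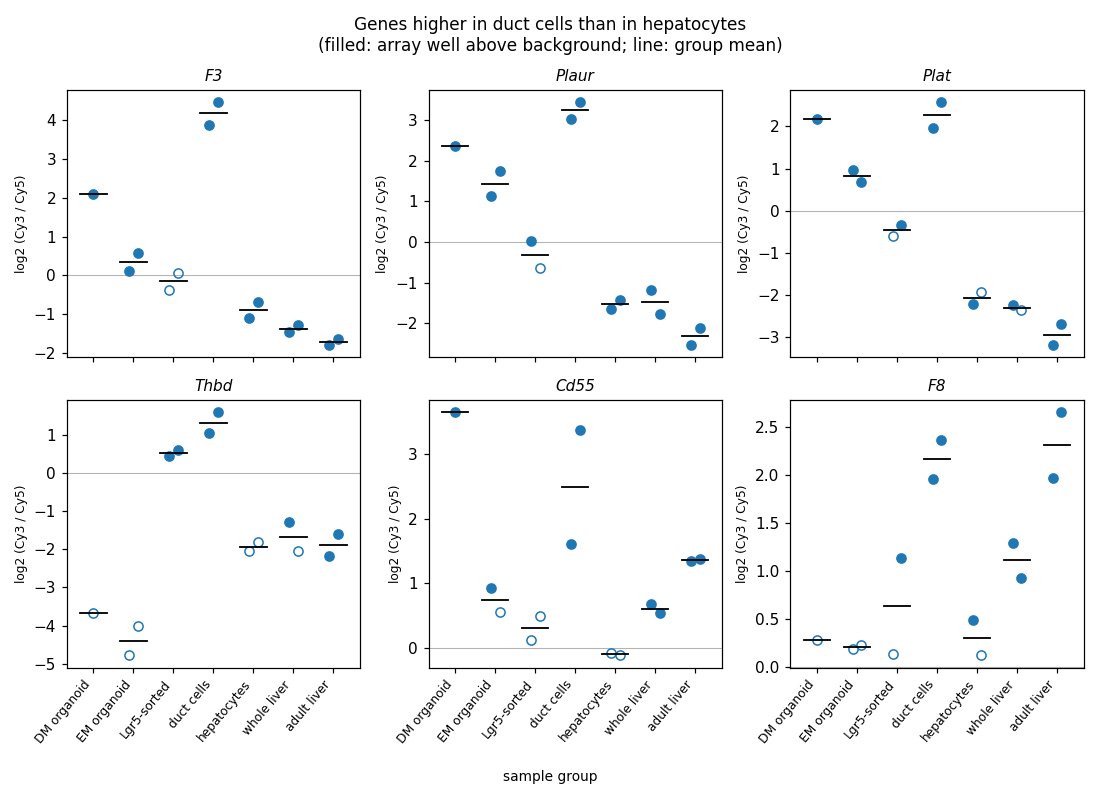
Log2 Cy3/Cy5 on each array (points) and the group mean (line) for genes that rose in ductal cells, across organoids, Lgr5-sorted cells, ductal cells, hepatocytes and undamaged liver, with open points for arrays not above background. For F3, Plaur, Plat and Thbd both ductal arrays lie above both hepatocyte arrays.

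The hepatocyte fraction was compared with whole liver, arrays of which lay on the same 2 slides. No gene of the 44 was called in either direction by limma, against 0.361% higher and 0.389% lower among all genes. At an unadjusted p below 0.05, 7 of the 44 differed. The share of all genes at that threshold is not given, so this count cannot be read as an excess. Without the first whole liver array 4 were called higher, and without the first hepatocyte array 2. The nearest to the threshold were C8a, C8b and C9 of the terminal pore. C8b had 5.68 and 8.0 in hepatocytes and 5.39 and 4.59 in whole liver (1.85, adjusted p = 0.0538). C8a had 6.67 and 8.22 in hepatocytes and 6.79 and 3.26 in whole liver (2.42, adjusted p = 0.0896), and C9 had 4.69 and 3.83 in hepatocytes and 3.27 and 2.15 in whole liver (1.55, adjusted p = 0.0576). C6 had 4.35 and 3.18 in hepatocytes and 3.75 and 0.82 in whole liver. For all 4 of these genes the second whole liver array was the lowest of the 4 arrays. Ddx3y was above background on both hepatocyte arrays and the first whole liver array and not on the second. The part of the animals' sex in these values was not tested.

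Lgr5-sorted cells were compared with ductal cells. Of the 44 genes, 4 were higher and 9 lower in Lgr5-sorted cells, with a median change of 0.03, against 5.92% higher and 5.31% lower among all genes. All 13 calls had arrays that did not overlap, which fixes their sign within both slides. Without the first ductal array 2 were higher, and without the second 5 were lower. Over all genes the direction of calls depended on the measure, with 1265 higher and 1134 lower by ratio, 198 higher and 3433 lower by Cy3 alone, and 1487 higher and 3560 lower by the deposited log ratio.

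Cfp, properdin, which steadies the alternative pathway convertase and is made by myeloid cells, had log2 ratios of 6.35 and 3.41 in Lgr5-sorted cells, against 0.97 and 0.38 in ductal cells (4.20 ± 0.59, SE, adjusted p = 4.44e-05). The Lgr5-sorted arrays were the highest of all 28 for it. Macrophage markers were higher on the same arrays, with a summed Cy3 level of 20.01 to 21.58 in Lgr5-sorted cells, against 15.17 to 15.73 in ductal cells, and 8 of the 10 were above background on both. Their part in the Cfp value was not tested. F2, prothrombin, had 3.30 and 2.44 in Lgr5-sorted cells, against 0.07 and -0.29 in ductal cells (2.98 ± 0.57, adjusted p = 0.000903), and Mbl2, with 2.03 and 1.33 against -0.10 and -0.01, was at least 2.52-fold higher. Hepatocyte markers had a summed level of 14.36 to 15.21 in Lgr5-sorted cells, against 14.08 to 15.29 in ductal cells, and 2 of the 9 were called higher and none lower, with a median change of 0.76 against 0.05 among all genes. Their part in the F2 and Mbl2 values was not tested.

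Genes that rose in ductal cells against hepatocytes were among those that fell in Lgr5-sorted against ductal cells. F3 had -0.38 and 0.07, above background on neither array, against 3.89 and 4.47 in ductal cells, at least 20.2-fold lower. Plaur had 0.02 and -0.64 in Lgr5-sorted cells, against 3.04 and 3.45 in ductal cells (-3.55 ± 0.26, SE, adjusted p = 3.09e-08), and Plat had -0.61 and -0.33, against 1.97 and 2.58 (-2.74 ± 0.23, adjusted p = 1.49e-07). Cd55 was at least 2.15-fold lower. C3 had 2.21 and 0.73 in Lgr5-sorted cells, against 3.15 and 4.08 in ductal cells (-2.15 ± 0.50, adjusted p = 0.00432). Thbd, with 0.45 and 0.61 against 1.05 and 1.59, was not called. Several genes stood apart between the 2 Lgr5-sorted arrays themselves, among them Pros1, protein S, with 1.56 and 4.77, Masp1, by the probe used, with -0.09 and 2.74, and C6 with 3.54 and 1.06.

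In EM organoids against adult liver, 3 of the 44 genes rose and 34 fell, with a median change of -5.09, against 14.3% higher, 17.5% lower and a median of -0.09 among all genes. No hepatocyte-source gene rose and 30 of the 33 fell, with a median of -5.47. All 37 calls had arrays that did not overlap, and for 20 of them only a bound could be given because 1 side was not above background. By Cy3 alone 3 were higher and 37 lower. Ddx3y was above background on both adult liver arrays and on neither EM array, and the part of the animals' sex was not tested.

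F2 had log2 ratios of -1.17 and -1.15 in EM organoids, against 6.31 and 6.13 in adult liver, at least 167-fold lower. Vtn had -0.06 and -0.12 in EM organoids, against 4.60 and 4.23 in adult liver, at least 22.7-fold lower, and Proz was at least 315-fold, Hc at least 173-fold and Mbl2 at least 35.3-fold lower. Fgb had 1.30 and 1.42 in EM organoids, with 1 of the 2 arrays above background, against 6.06 and 5.46 in adult liver (-4.40 ± 1.08, SE, adjusted p = 0.00216). Cpb2 had -2.28 and -2.07 in EM organoids, against 5.23 and 5.32 in adult liver (-7.45 ± 0.47, adjusted p = 1.14e-10). The 2 EM arrays lay below both adult liver arrays for each of these genes. All 6 genes of terminal complement, all 4 of the contact system, all 3 of fibrinogen and all 7 of the vitamin K dependent group fell.

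The 3 hepatocyte-source genes that were not called were Cfi, C3 and Cfb. C2, a protease of the classical and lectin convertase, fell, with -1.70 and -1.04 in EM organoids, against 4.38 and 4.99 in adult liver (-6.06 ± 0.56, SE, adjusted p = 2.41e-08). Cfi had 7.70 and 9.05 in EM organoids and 9.44 and 10.18 in adult liver, a change of -1.44 ± 0.69 (SE, adjusted p = 0.0965). C3 had 3.15 and 3.48 in EM organoids and 4.01 and 4.18 in adult liver (-0.78 ± 0.50, adjusted p = 0.216), and Cfb had 3.75 and 3.69 against 5.17 and 4.47 (-1.10 ± 0.71, adjusted p = 0.228). The EM arrays were lower than both adult liver arrays for Cfi, C3 and Cfb, and none of the 3 passed the test by ratio. By Cy3 alone, as scaled, all 3 passed (limma adjusted p = 0.00518 for Cfi, 0.0448 for C3 and 6.98e-08 for Cfb). The median gene changed by -0.34 in that measure. Relative to it the changes were -1.42 for Cfi, -1.03 for C3 and -4.00 for Cfb, and these relative changes were not tested. All 3 were above background on every EM array. The Cfi probe lies at chr3:129578111-129578170 on the plus strand and the C3 probe at chr17:57343416-57343475 on the minus strand of mm9.

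The 3 genes that rose in EM organoids were those of plasminogen activation and clot initiation that were also high in ductal cells. Plaur had 1.13 and 1.74 in EM organoids, against -2.54 and -2.11 in adult liver (3.76 ± 0.26, SE, adjusted p = 3.7e-10), and Plat had 0.96 and 0.67, against -3.19 and -2.70 (3.75 ± 0.23, adjusted p = 9.1e-11). F3 had 0.10 and 0.57 in EM organoids, against -1.80 and -1.64 in adult liver (2.05 ± 0.25, adjusted p = 9.41e-07). Plau, with -2.44 and -0.96 in EM organoids and -2.07 and -2.12 in adult liver, was not called. Thbd fell, with -4.78 and -4.00 in EM organoids, above background on neither, against -2.17 and -1.59 in adult liver, at least 3.58-fold lower. Cd59a (-5.70 ± 0.46, adjusted p = 4.31e-09) and Cfp (-3.47 ± 0.59, adjusted p = 6.48e-05) also fell.

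Against sorted ductal cells, EM organoids had 1 of the 44 genes higher and 15 lower, with a median change of -0.58, against 12.5% higher and 13.9% lower among all genes. The calls over all genes were 2671 higher and 2972 lower by ratio, and 3641 higher and 10048 lower by Cy3 alone, whose median over all genes was -0.95. Without the first EM array 2 were higher. Cfi was the gene that rose, with log2 ratios of 7.70 and 9.05 in EM organoids, against 2.79 and 4.30 in ductal cells (4.83 ± 0.69, SE, adjusted p = 1.31e-05). The EM arrays were both above both ductal arrays, and the change was 4.24 by Cy3 alone relative to the median gene. With the deposited log ratio it was 2.83 (adjusted p = 0.201). All 7 genes of endothelial, epithelial or stromal source fell. F3 had 0.10 and 0.57 in EM organoids, against 3.89 and 4.47 in ductal cells (-3.85 ± 0.25, adjusted p = 5.74e-10), and Thbd was at least 20.9-fold lower.

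C2 had -1.70 and -1.04 in EM organoids, against 3.87 and 5.39 in ductal cells (-6.00 ± 0.56, SE, adjusted p = 7.17e-08). Masp1, by the probe used, had -4.37 and -3.72 in EM organoids, against 2.35 and 3.28 in ductal cells (-6.86 ± 0.58, adjusted p = 2.06e-08). Its other probes did not show this fall. They averaged -0.36, 0 and -0.30 in EM organoids, above background on no EM array, and 0.04, 0.05 and -0.03 in ductal cells. Plaur (-1.81 by ratio) and Plat (-1.46 by ratio) fell by ratio, but relative to the median gene their Cy3 changes were -0.53 and 0.14. C3 and Cfb, at 3.15 and 3.48 and at 3.75 and 3.69 in EM organoids, were within the ranges of the ductal arrays. The endothelial markers that were above background in the ductal cells were above it in no EM array for 6 of the 8, and their part in the fall of Thbd and F8 was not tested.

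Differentiation medium was set against expansion medium with 1 DM array, whose spread was assumed to be like that of the other groups. Of the 44 genes, 4 were higher and 1 lower in DM organoids, with a median change of 0.06, against 6.13% higher and 3.95% lower among all genes. Of the 45 genes, 10 were above background on the DM array and 35 were not, and 27 of the 33 hepatocyte-source genes were not. Of all probes, 30.9% were above background on that array, against 53.9% and 31.4% on the EM arrays. All 5 calls had arrays that did not overlap, which fixes their sign on the slide that held both media. Ddx3y was above background on the DM array and on neither EM array. Medium and the sex of the source animals therefore cannot be told apart here.

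C3 fell, with a log2 ratio of -3.40 in DM organoids, against 3.15 and 3.48 in EM organoids (-6.71 ± 0.61, SE, adjusted p = 2.05e-07), and its Cy3 change relative to the median gene was -6.62. Cfb, with 4.26 in DM organoids and 3.75 and 3.69 in EM organoids, and Cfi, with 7.19 against 7.70 and 9.05, were not called. Cd55 had 3.65 in DM organoids, against 0.93 and 0.56 in EM organoids (2.91 ± 0.62, adjusted p = 0.00325). F3 had 2.11 in DM organoids, against 0.10 and 0.57 in EM organoids (1.78 ± 0.30, adjusted p = 0.000414), but by Cy3 alone its adjusted p was 0.14. Plat had 2.17 in DM organoids, against 0.96 and 0.67 in EM organoids (1.36 ± 0.29, adjusted p = 0.00279), a call that the deposited log ratio did not give (adjusted p = 0.196). Cd55 has 2 further probes, at 0.23 and 1.37 in DM organoids and 0.78 and 0.18 in EM organoids, and the second probe of C3 averaged -0.58 in DM and 1.44 in EM organoids.

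Of the hepatocyte-source genes only Proz rose, with 2.72 in DM organoids, against 0.10 and -0.22 in EM organoids, at least 5.93-fold higher. It has 3 probes, and the other 2 had 0.19 and -0.22 in DM organoids. Proc had 5.42 in DM organoids and 2.63 and 3.68 in EM organoids (2.26 ± 0.81, SE, adjusted p = 0.0767), and by Cy3 alone its adjusted p was 0.000904. The DM array was above both EM arrays for Proc and below both adult liver arrays, at 6.30 and 5.58. Alb had 3.84 in DM organoids and 1.59 and 1.24 in EM organoids. F2 had -1.11, Fgb 0.88, Plg, plasminogen, -0.07 and Hc -0.29 in DM organoids, and none of these 4 genes was called.

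**Figure D4:**
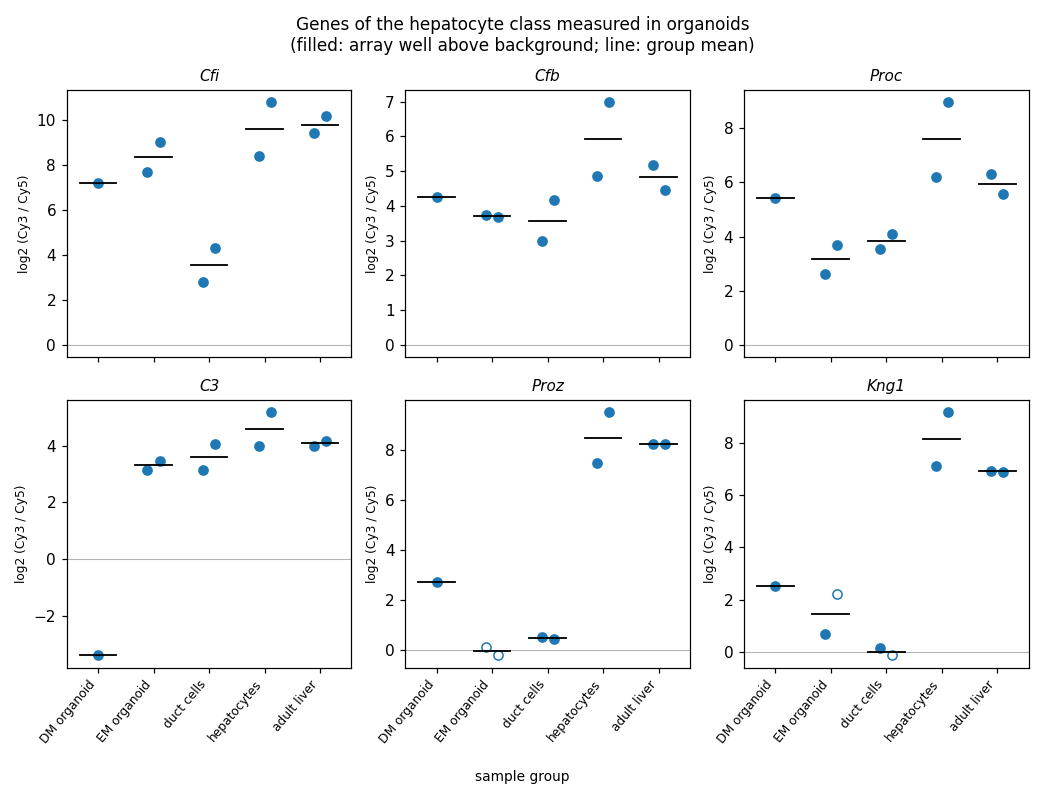
Log2 Cy3/Cy5 on each array (points, open where not above background) with the group mean (line) in DM organoids, EM organoids, ductal cells, hepatocytes and adult liver, for hepatocyte-source genes. Cfi lies at 7.70 and 9.05 in EM organoids, above both ductal arrays, and C3 at -3.40 on the DM array, below all others shown.

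Liver after 3 days of CCl4 was compared with the 4 undamaged arrays of adult and whole liver, to see how the response to injury touched these genes. Of the 44 genes, 5 were higher and 1 lower, with a median change of -0.01, against 4.99% higher and 1.98% lower among all genes. The splits over all genes were 1066 higher and 423 lower by ratio, 860 and 654 by Cy3 alone, and 681 and 546 after quantile normalization of the channels. All 33 hepatocyte-source genes stayed above background, and only C9 among them was called. No slide held day 3 and undamaged liver together, and with slide as a random block 5 genes were higher and 1 lower.

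F13a1 had log2 ratios of 0.94 and 1.59 at day 3, against -1.08 and -0.87 in adult liver and -0.57 and -0.57 in whole liver (2.04 ± 0.31, SE, adjusted p = 0.000123). Thbd had -0.06 and -0.16 at day 3, against -2.17 and -1.59 in adult liver and -1.29 and -2.05 in whole liver (1.67 ± 0.26, adjusted p = 0.000147). Plat had -0.72 and -1.26 at day 3, against -3.19, -2.70, -2.25 and -2.35 in the undamaged livers (1.63 ± 0.20, adjusted p = 1.16e-05). Cd55 had 2.43 and 2.61 at day 3, against 1.35, 1.38, 0.68 and 0.53 (1.54 ± 0.44, adjusted p = 0.0217). This call was lost with the deposited ratio (adjusted p = 0.366), by Cy3 alone (0.0554) and with quantile normalization (0.164). The mean of all probes (0.113) and adult liver alone as reference (0.148) also lost it. So did leaving out either day 3 array (changes of 1.63 and 1.45) or the first adult liver array (1.53). Both day 3 arrays were above all 4 undamaged arrays for these 4 genes. Cd59a, the pore inhibitor, fell, with 2.35 and 2.43 at day 3, against 3.72, 3.58, 3.22 and 4.28 in the undamaged livers (-1.31 ± 0.40, adjusted p = 0.0325), and this call was lost when any 1 array other than the first whole liver array was left out.

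Marker genes of other cells differed on the same arrays. Stellate cell and fibroblast markers had a summed Cy3 level of 16.10 to 16.30 at day 3, against 13.73 to 14.25 in adult liver and 14.45 to 14.74 in whole liver. Macrophage markers had 16.47 to 16.80 at day 3, against 15.35 to 16.39 and 14.86 to 16.22, and platelet markers 11.37 to 11.66, against 10.05 to 10.14 and 10.16 to 10.46. Their part in the 5 rises was not tested. C9, a pore protein, was called higher (1.66 ± 0.33, SE, adjusted p = 0.00153) with arrays that overlapped. It had 6.05 and 6.18 at day 3, against 5.39 and 7.0 in adult liver and 3.27 and 2.15 in whole liver, and against adult liver alone the change was -0.08. This call therefore depended on which undamaged livers it was set against. It was also lost with the deposited ratio (0.92, limma adjusted p = 0.0845), by Cy3 alone (0.54, 0.507) and with quantile normalization (0.79, 0.202).

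After 13 days of CCl4, 1 of the 44 genes was higher and 4 were lower than at day 3, against 2.12% and 3.48% of all genes. Both times lay on the same slide, so the sign within that slide is no separate check. Over all genes the split was 452 higher and 743 lower by ratio, and 472 and 459 by Cy3 alone. F13a1 fell to -1.09 and -1.32 at day 13, against 0.94 and 1.59 at day 3 (-2.47 ± 0.36, SE, adjusted p = 0.000116). Thbd had -1.92 and -2.06 at day 13, against -0.06 and -0.16 at day 3 (-1.88 ± 0.30, adjusted p = 0.000276), and Plat had -2.31 and -2.37, against -0.72 and -1.26 (-1.35 ± 0.23, adjusted p = 0.000652). At day 13 Thbd and Plat lay within the range of the undamaged livers and F13a1 just below it. Cd55, with 2.01 and 1.80 at day 13, was not called. The comparisons share the day 3 arrays, so these falls are not independent of the rises. Stellate cell and fibroblast markers had a summed Cy3 level of 15.01 to 15.24 at day 13, against 16.10 to 16.30 at day 3, with 4 of the 9 called lower. Platelet markers had 9.98 to 10.05 at day 13, against 11.37 to 11.66 at day 3, with 1 of the 5 called lower, and the part of both in these falls was not tested.

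Klkb1, plasma prekallikrein, had 5.75 and 6.21 at day 13, against 4.76 and 4.66 at day 3 (1.27 ± 0.35, SE, adjusted p = 0.0279), and the call was lost when any 1 of the 4 arrays was left out. C9 had 4.49 and 4.25 at day 13, against 6.05 and 6.18 at day 3 (-1.75 ± 0.38, adjusted p = 0.00513). That call was lost with the deposited ratio (-0.52, adjusted p = 0.742), by Cy3 alone (adjusted p = 0.464), with quantile normalization (0.0663), without the second day 13 array (0.0664) and without the second day 3 array (0.0566). C6 had 2.74 and 2.43 at day 13, against 3.90 and 3.86 at day 3, and was not called. Ddx3y was above background on both day 3 arrays and on neither day 13 array, and the part of the animals' sex in C6 and C9 was not tested. The second whole liver array, without Ddx3y, had the lowest C6 and C9 of the undamaged livers, at 0.82 and 2.15.

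**Figure D5:**
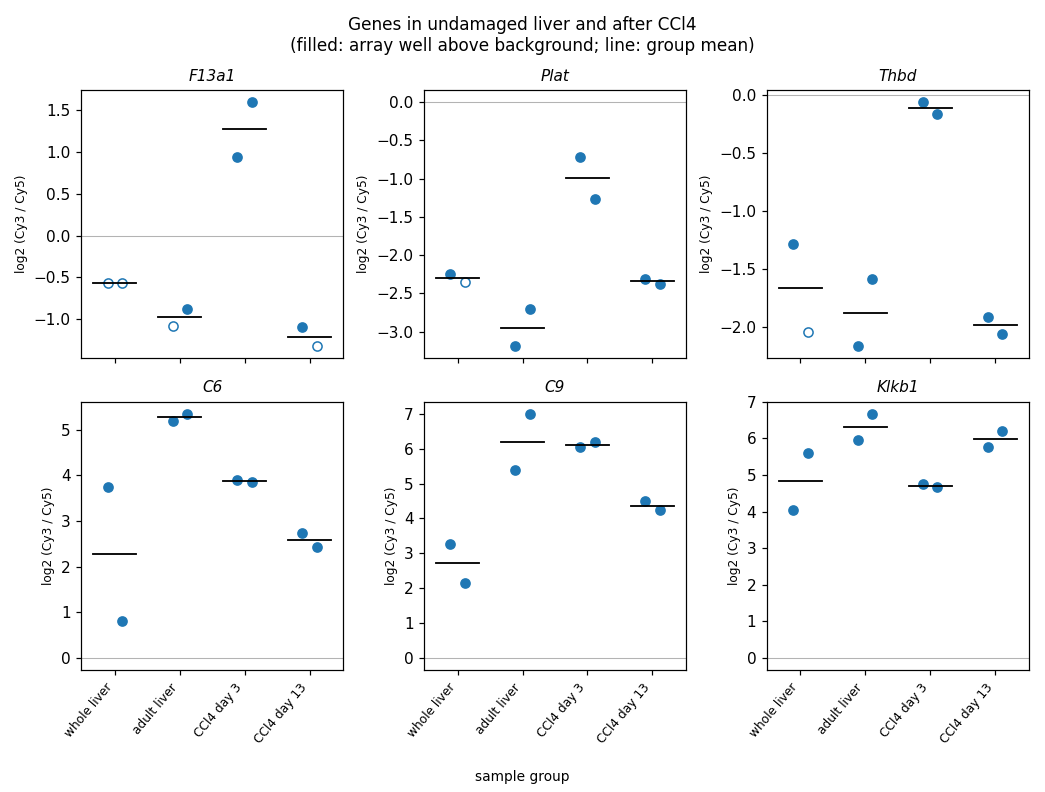
Log2 Cy3/Cy5 on each array (points, open where not above background) with the group mean (line) in whole and adult liver and after 3 and 13 days of CCl4. F13a1, Thbd and Plat lie above all 4 undamaged arrays at day 3 and are lower at day 13, and C9 at day 3 lies between the 2 adult liver arrays.

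The anaphylatoxin receptors gave little signal. C3ar1, the receptor for C3a on myeloid cells, was called in none of the 12 comparisons, with log2 ratios between -0.83 and 0.64 over all arrays. C5ar1 lay between -0.39 and 1.09 and was above background on 1 array. The Lgr5-sorted arrays, with their high macrophage markers, had 0.32 and 0.10 for C3ar1 and -0.06 and -0.14 for C5ar1.

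Other genes of both pathways, listed separately, numbered 63, of which 56 were tested. In ductal cells against hepatocytes 14 of them were higher and 16 lower, among them Procr, the endothelial receptor of protein C (5.82), Vwf, von Willebrand factor (4.97), and Serpinc1, antithrombin (-8.83). In Lgr5-sorted against ductal cells 7 were higher and 13 lower, with Vsig4, a complement receptor of resident macrophages (6.11), C1qc (3.98) and C1qb (2.53), both chains of the classical pathway's recognition protein, higher and Clu, clusterin (-5.47), lower. In EM organoids 7 were higher and 31 lower than in adult liver, with Anxa2, a plasminogen receptor subunit (4.43), and Serpinc1 (-8.73) among them, and 2 were higher and 20 lower than in ductal cells, C4bp, which binds C4b (4.02), among the higher. In DM against EM organoids 2 were higher and 5 lower. At day 3 of CCl4, 4 were higher and none lower, Anxa2 by 2.59 and Tgm2, tissue transglutaminase, by 1.82. Adult liver had 27 higher and 10 lower than muscle and 25 higher and 7 lower than pancreas. As shares of the 56, the counts at day 3 were 7.14% higher and 0% lower, and those in DM organoids 3.57% higher and 8.93% lower, near the shares of all genes (4.99% and 1.98% at day 3, 6.13% and 3.95% in DM organoids). In EM organoids 12.5% were higher and 55.4% lower than in adult liver, against 14.3% and 17.5% of all genes, and 3.57% higher and 35.7% lower than in ductal cells, against 12.5% and 13.9%. In ductal cells against hepatocytes the shares were 25% and 28.6%, against 11.8% and 11.2%, and in Lgr5-sorted against ductal cells 12.5% and 23.2%, against 5.92% and 5.31%. Adult liver had 48.2% higher and 17.9% lower than muscle, against 15.7% and 19.7% of all genes, and 44.6% higher and 12.5% lower than pancreas, against 12.6% and 16.2%.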

How the data were processed

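Per the file headers the arrays were read with Agilent Feature Extraction 10.5.1.1 (8.5.1.1 per the submitters' processing notes), with probe positions on mm9. The deposited intensity values are median spot and background signals in Cy3 and Cy5, and the deposited log10 ratio is red over green. In limma 3.58.1 (R 4.3.3), signals were corrected by normexp with an offset of 50 and normalized by loess within each array (1639 control spots at weight 0), 0.495% outlier spots were dropped, and log2(Cy3/Cy5) was fitted with 13 group means over 28 arrays (lmFit and eBayes), so all groups share 1 estimate of the spread. Probes needed a Cy3 signal above background on 2 or more arrays, and a gene was read from its brightest probe, which left 21355 genes, 15355 of them named through RefSeq accessions and 6000 by the name in the files. Where a group was above background on no array, a bound of the fold was computed per channel after loess and quantile normalization, open to dye bias since no dyes were swapped. The bound printed is the lowest of that value, the same bound on Cy3 alone (as scaled and relative to the median gene) and the fold of the ratio, a rule chosen after seeing the data. The number of arrays limits the precision.

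The members and gene lists were chosen with earlier results of these data known. Genes given full values are, per comparison, up to 3 that rose most and 3 that fell most among calls without overlap, 21 key genes, and others chosen after their values were seen. Alternatives were the deposited log10 ratio, Cy3 alone, quantile normalization, other filters and probe rules, slide and replicate blocks, and leaving out each array. Same-numbered arrays of sorted cells, hepatocytes and whole liver shared slides, but no animal was named and the numbers were not taken as pairing. The calculations were tested on simulated data.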

Additional observations from a re-analysis of the deposited data

How the results depend on the processing

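Of 269 called changes of single genes over the 12 comparisons, 219 kept their direction and their side of the threshold under every alternative, and 50 lost the call under at least 1. The deposited ratio lost 31, the mean of all probes 10, Cy3 alone 15 and quantile normalization of the channels 16, the last added after seeing the data. The direction turned for Masp1 in ductal cells against hepatocytes (-1.18 with the mean of all probes), C9 at day 3 of CCl4 (-0.08 against adult liver alone) and Vtn in adult liver against pancreas (4.21 by Cy3 alone). The causes were not tested. In hepatocytes against whole liver, the deposited ratio gave 1 higher and 1 lower, slide as a random block 2 higher, and leaving out 1 array 0 to 4 higher. In Lgr5-sorted against ductal cells, 8 were higher with the deposited ratio and 8 with quantile normalization, 14 were lower by Cy3 alone, and leaving out 1 array gave 2 to 4 higher and 5 to 9 lower. In EM organoids against ductal cells, the deposited ratio gave 0 higher, Cy3 alone 37 lower, and leaving out 1 array 1 to 2 higher. In DM against EM organoids, the mean of probes gave 2 higher and the deposited ratio 2 lower. At day 3, 3 were higher with the deposited ratio, with Cy3 alone, with quantile normalization and with the mean of probes. Also at day 3, 2 were lower with the deposited ratio, Cy3 alone, no fold minimum or adult liver alone, 0 with the mean of probes, and 0 to 2 when 1 array was left out. At day 13 against day 3, the deposited ratio gave 0 higher and 1 lower, Cy3 alone 2 higher, and leaving out any 1 array 0 higher. Over all genes, the split of calls also moved for DM against EM organoids (1310 higher and 844 lower by ratio, 572 and 589 deposited), for adult liver against muscle (3361 and 4207, 5188 and 2971 by Cy3 alone), against brown fat (2815 and 3367, 6417 and 2772 by Cy3 alone) and against pancreas (2682 and 3458, 4287 and 2973 deposited, 3265 and 8648 by Cy3 alone). With the replicate number as a block, ductal cells against hepatocytes kept 8 higher and 29 lower, EM organoids against adult liver 3 and 34, and day 3 against undamaged liver 5 and 1. The block lost none of the 269 calls, and arrays that share a number had correlations of -0.11 to 0.44 of their deviations. Crossing the numbers at day 13 against day 3 left 1 higher and 4 lower.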
